A study of Mus musculus with 30 samples.

Results

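The ATF4 amino acid response is described here by 36 genes of mouse CD8+ T cells, taken by symbol from a list of ATF4 with its partner factors and feedback genes, serine and one-carbon enzymes, other amino acid enzymes and amino acid transporters. Of the 36, 35 had at least 10 reads in 5 or more of the 30 libraries, and all 35 passed the filter on low counts. They stood among 55573 genes in the table, of which 11718 were tested. The gene that did not pass was Vldlr, a lipoprotein receptor gene, with at most 8 reads in any library. The least read genes that passed were Nupr1, with 10 or more reads in 26 libraries, and Slc7a11, in 29. The 35 comprised 12 regulators, 7 serine and one-carbon enzymes, 6 other amino acid enzymes and 10 transporters.

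The study compared Furin knockout (KO) with wild type (WT) CD8+ T cells, each stimulated with TGFB1, with IL12 or with neither cytokine. FURIN is a protease that cleaves precursor proteins, the TGFB1 precursor among them. Naive cells came from the lymph nodes and spleens of 8-week-old C57BL/6 mice and were grown in serum-free medium for 3 days on plates coated with anti-CD3 and anti-CD28 antibodies (5 µg/ml each), which all 6 groups received. The groups were KO and WT with TGFB1 at 0.5 ng/ml, KO and WT with IL12 at 10 ng/ml, and KO and WT with no added cytokine. Each had 5 libraries, from 4 females and 1 male. How Furin was deleted, and in which cells, is not given in the sources used here. The labels number the libraries, with KO 63, 68, 70, 73 and 74 and WT 62, 67, 71, 72 and 75 in each condition, and 63 and 62 are the males. They do not say that a number is an animal, so p-values measure the spread between these libraries.

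ATF4 is a transcription factor whose translation rises when the initiation factor eIF2α is phosphorylated, for instance by GCN2 when uncharged tRNA accumulates, and ATF4 is also raised by mTORC1 signalling in growing cells. With C/EBP partners it binds amino acid response elements and turns on genes that make, take up and charge amino acids. Activated T cells raise these genes as they enter growth and division, since they need serine, one-carbon units, glutamine and large neutral amino acids.

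The promoter sequences below hold, before the annotated start, the core of the amino acid response element, TGATGNAA. They belong to some of the listed genes with a match, and the results name the element again for Asns only. The motif was searched on both strands from 250 bases before to 50 bases after each RefSeq start. It was found in 10 of the 32 listed genes that had a window (31.25%) and in 1219 of 27025 mouse genes (4.51%). Capitals mark the motif. Where the capitals begin with TT, the match is on the opposite strand of the gene. Each stretch is written 5′ to 3′ along its gene, from RefSeq on GRCm38.p6.
Asns, asparagine synthetase, chr6:7693210-7693292, minus strand: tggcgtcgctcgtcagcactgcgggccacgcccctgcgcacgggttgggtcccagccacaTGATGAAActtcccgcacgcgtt
Pycr1, a proline synthesis enzyme, chr11:120643784-120643911, minus strand: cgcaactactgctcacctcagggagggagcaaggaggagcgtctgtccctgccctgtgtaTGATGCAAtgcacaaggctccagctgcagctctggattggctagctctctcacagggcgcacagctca
Got1, cytosolic aspartate transaminase, chr19:43524640-43524767, minus strand: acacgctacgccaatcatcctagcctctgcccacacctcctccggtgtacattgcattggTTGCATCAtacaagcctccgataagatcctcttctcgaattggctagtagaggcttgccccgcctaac
Slc7a11, the cystine transporter, chr3:50443614-50443739, minus strand: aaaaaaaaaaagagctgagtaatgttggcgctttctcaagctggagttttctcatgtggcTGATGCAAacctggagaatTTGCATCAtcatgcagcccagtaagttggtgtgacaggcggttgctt
Nupr1, a stress-induced nuclear protein, chr7:126625513-126625640, minus strand: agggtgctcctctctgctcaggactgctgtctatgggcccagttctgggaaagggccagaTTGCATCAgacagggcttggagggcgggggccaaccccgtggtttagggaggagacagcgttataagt
Atf3, a stress-induced transcription factor, chr1:191183376-191183503, minus strand: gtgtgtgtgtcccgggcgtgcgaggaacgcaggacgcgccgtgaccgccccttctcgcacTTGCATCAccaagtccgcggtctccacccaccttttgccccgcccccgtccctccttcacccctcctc
Chac1, a glutathione-degrading enzyme, chr2:119350992-119351116, plus strand: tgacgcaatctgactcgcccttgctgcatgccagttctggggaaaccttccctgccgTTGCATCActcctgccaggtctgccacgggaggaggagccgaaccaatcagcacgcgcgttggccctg

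The motif began 23 bases before the start in Asns, 103 in Pycr1, 102 in Got1, 110 in Nupr1 and in Atf3, and 193 in Chac1. Slc7a11 had 2 matches in opposite orientation, 66 and 47 bases before the start. The other matches were in Slc1a4, 4 bases before the start, in Trib3, 14 bases after it, and at an alternative start of Vldlr. The cyclic AMP response element TGACGTCA was found in 0 of the 32 genes and in 2.03% of all genes, and the E-box CACGTG in 2 of the 32 (6.25%) and in 8.09% of all genes. Eif4ebp1, Slc7a5, Slc1a5 and Slc38a1 had no window. A match is a description of these letters and shows no binding.

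Library totals ran from 7306151 to 15502443 counts. Summed over 6 markers of CD8 T cells, levels in CPM (counts scaled to a common library size) were 2170 to 2940 in KO and 2670 to 4290 in WT with TGFB1, 1690 to 2260 in KO and 2000 to 2510 in WT with IL12, and 2340 to 2500 in KO and 2350 to 2700 in WT without cytokine. Cd4 reached at most 2.37 CPM, 5 B cell genes together at most 0.829, 5 erythroid and platelet genes 2.42 and 6 myeloid genes 8.21. Lists of dendritic, NK and stromal cell genes had 1 tested gene each, and their sums differed between groups. With so few genes read, these sums do not show cells of those types. With TGFB1 the NK genes Ncr1, Klrb1c and Klra8 were at 0 in every library of both genotypes, so the NK sum was that of Eomes alone. Siglech of the dendritic list and Dcn of the stromal list were also at 0 in every library with TGFB1. With TGFB1 the dendritic list summed to 23.7 to 67.2 CPM in KO cells and 2.83 to 41.4 CPM in WT cells, the NK list to 0.52 to 1.51 CPM in KO and 1.33 to 7.95 CPM in WT, and the stromal list to 7.64 to 35.6 CPM in KO and 26.3 to 81.5 CPM in WT. With IL12 the dendritic list summed to 73.4 to 171 CPM in KO and 57.5 to 229 CPM in WT and the NK list to 19 to 34.9 CPM in KO and 27.2 to 43.9 CPM in WT, against 17.6 to 25.6 CPM in KO and 17.4 to 33.9 CPM in WT for the dendritic list and 6.29 to 12 CPM in KO and 12.4 to 23 CPM in WT for the NK list without cytokine. The part of any of these lists, the CD8 list included, in the results was not tested. Furin transcript levels overlapped between genotypes, at 66.0 to 90.2 CPM in KO cells and 73.9 to 93.2 CPM in WT cells with TGFB1, and 31.5 to 33.9 CPM in KO cells and 28.8 to 38.5 CPM in WT cells without cytokine, so counts over the gene do not check the genotype labels. One library stood apart in the results below. The WT TGFB1 library 62, the WT male, was highest of its 5 in 31 of the 35 genes. Its Itgae, a gene that TGFB1 induces in CD8 T cells, was at 28.9 CPM, against 152 to 268 CPM in the other 4 WT TGFB1 libraries and 28.4 to 84.8 CPM in the KO TGFB1 libraries. Libraries without cytokine held 1.06 to 7.30 CPM of Itgae. They held 28.8 to 38.5 CPM of Furin, against 73.9 CPM in library 62 with TGFB1. Xist and the Y-linked Ddx3y fitted the sex label in all 30 libraries, library 62 included. Since Furin counts do not check the genotype labels, whether this library had the genotype and the TGFB1 exposure on its label was not tested, and every WT TGFB1 value that includes it carries that doubt. Counts of called genes in each list, medians and the changes of the genes given by library are shown with and without it. Excepted are counts by role and single genes in the further lists.

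The most abundant of the 35 transcripts were those of serine enzymes. Levels between genes are compared per kilobase of exon. In WT cells without cytokine the highest were Shmt2 at 239 CPM per kb, Phgdh at 238, Psat1 at 223, Atf4 itself at 186 and Slc7a5 at 165. The lowest measured were Slc16a10 at 3.35, Nupr1 at 0.573 and Slc7a11 at 0.509. In KO cells with TGFB1 the first 5 were Psat1 (238), Phgdh (225), Shmt2 (221), Atf4 (150) and Slc7a5 (133), and in WT cells with TGFB1 they were Phgdh (167), Ddit4 (163), Psat1 (141), Shmt2 (140) and Atf4 (99.3). Ddit4, an inhibitor of mTORC1 signalling, thus stood among the 5 highest only in the last of these 3 groups.

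With TGFB1, KO cells held higher levels of amino acid response genes than WT cells. Of the 35 genes 26 were higher in KO and 2 lower (edgeR quasi-likelihood test, Benjamini-Hochberg adjusted p below 0.05 over 11718 genes, the rule for every call below). Over all genes tested 35.6% were called, 18.3% higher and 17.3% lower. The median log2 fold change of the 35 was 0.59, and that of all genes was -0.006. In the fit of all libraries, all 7 serine and one-carbon enzymes and all 6 other amino acid enzymes rose. So did 8 of 10 transporters and 5 of 12 regulators. The lower genes were the regulators Ddit3 and Ddit4. Without WT library 62, 30 genes were higher and 2 lower, where 45.4% of 11856 genes were called, and the median was 0.87. The regulators Trib3 and Chac1 were among the 30.

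Atf4 (ENSMUSG00000042406, chromosome 15, 80255184 to 80257541 on GRCm38) had 322, 439, 334, 246 and 426 CPM in KO cells with TGFB1, against 409, 198, 164, 208 and 192 CPM in WT cells with TGFB1. The KO libraries all lay above the 4 WT female libraries, and WT library 62 lay within the KO range. The log2 fold change was 0.59 ± 0.18 (SE, adjusted p = 0.0103), and 0.89 ± 0.14 without library 62. The transcript says nothing of the translation of Atf4, through which the factor is mainly controlled.

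**Figure D1:**
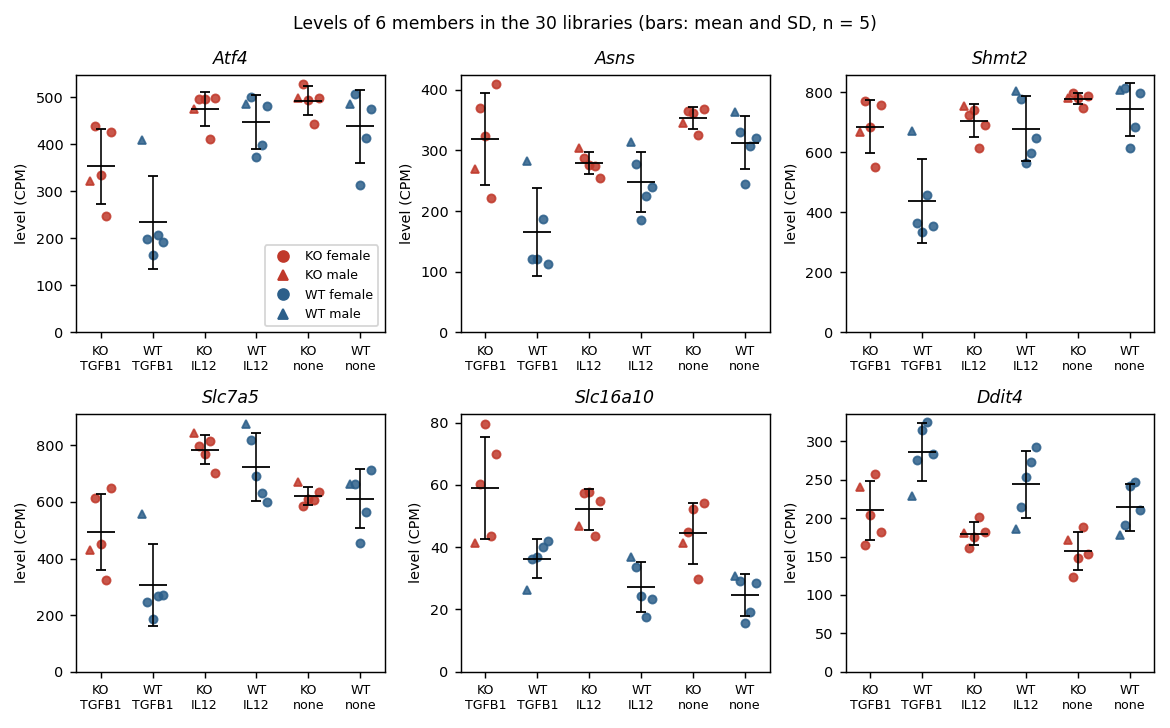
CPM of Atf4, Asns, Shmt2, Slc7a5, Slc16a10 and Ddit4 in each library, with the mean and SD of 5 libraries per group as bars, KO in red, WT in blue and males as triangles. With TGFB1 the 4 WT female libraries of Atf4 sit between 164 and 208 CPM, below all 5 KO libraries, and the WT male library sits at 409 CPM.

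The serine pathway, which turns a glycolytic intermediate into serine and then into glycine and one-carbon units, was higher throughout in KO cells with TGFB1. Phgdh, which takes the first step, had 553, 622, 547, 481 and 592 CPM in KO and 599, 365, 362, 408 and 340 CPM in WT. Psat1, the aminotransferase that follows it, had 892, 1146, 971, 751 and 1304 CPM in KO and 844, 524, 522, 644 and 473 CPM in WT. In both genes the 4 WT female libraries lay below every KO library, with log2 fold changes of 0.43 ± 0.12 (adjusted p = 0.00585) for Phgdh and 0.75 ± 0.13 (adjusted p = 0.000344) for Psat1. Without library 62 they were 0.60 ± 0.09 and 0.91 ± 0.12. A pseudogene of Phgdh, Phgdh-ps1, is annotated, and how reads were split between the pair is not given in the sources used here. The last enzyme of serine synthesis, Psph, had means of 221 ± 35.5 CPM in KO cells and 147 ± 40.4 CPM in WT cells (SD, n = 5 each), a log2 fold change of 0.59.

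Shmt2, the mitochondrial enzyme that splits serine into glycine and a one-carbon unit, had 666, 771, 685, 550 and 757 CPM in KO cells with TGFB1 and 672, 365, 336, 457 and 354 CPM in WT cells with TGFB1. Its log2 fold change was 0.65 ± 0.14 (adjusted p = 0.001). Mthfd2, the mitochondrial dehydrogenase that follows, had 393, 518, 436, 341 and 548 CPM in KO and 418, 228, 215, 293 and 235 CPM in WT, a log2 fold change of 0.69 ± 0.14 (adjusted p = 0.000735). Both genes showed the same division as above, with the WT females below all KO libraries and WT library 62 among them. Without library 62 the changes were 0.86 ± 0.11 for Shmt2 and 0.88 ± 0.12 for Mthfd2. The cytosolic form Shmt1 had means of 99.6 ± 30.1 CPM in KO cells and 56.2 ± 15.2 CPM in WT cells (log2 fold change 0.83). Mthfd1l, which releases formate from mitochondria, moved least of the 7, at 0.32 ± 0.08.

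Among the other amino acid enzymes, Asns, which makes asparagine from aspartate and whose promoter holds the element shown above, had 270, 370, 324, 221 and 409 CPM in KO cells with TGFB1 and 283, 121, 122, 187 and 113 CPM in WT cells with TGFB1. All 5 KO libraries exceeded the 4 WT females, whereas library 62 exceeded 2 of the KO libraries. The log2 fold change was 0.95 ± 0.19 (adjusted p = 0.000632). Gpt2, the mitochondrial alanine transaminase, changed most of the 6, with 76.3, 111, 72.7, 48.9 and 127 CPM in KO and 96.9, 23.9, 17.9, 34.6 and 24.02 CPM in WT (1.15 ± 0.30, adjusted p = 0.00431). Without library 62 the change of Asns was 1.23 ± 0.16 and that of Gpt2 1.80 ± 0.22. Bcat1, which transaminates branched-chain amino acids, the proline synthesis enzymes Aldh18a1 and Pycr1, and Got1 rose by 0.52 to 0.79 on the log2 scale.

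Slc7a11, which imports cystine for glutathione, showed the largest rise of the 35 in KO cells with TGFB1 but was among the least read. It had 4.79, 9.06, 5.40, 4.17 and 16.7 CPM in KO and 5.38, 1.06, 0.971, 2.85 and 2.21 CPM in WT, with a log2 fold change of 1.71 ± 0.36 (adjusted p = 0.00108). The KO libraries were all above the 4 WT females, and KO library 74 was far above the other 4. Slc7a5, the light chain of the transporter of large neutral amino acids, had 430, 614, 451, 324 and 648 CPM in KO and 559, 246, 185, 266 and 272 CPM in WT (0.69 ± 0.20, adjusted p = 0.00818). Its heavy chain Slc3a2, which also pairs with Slc7a11, had 299, 357, 290, 256 and 360 CPM in KO and 396, 228, 172, 220 and 231 CPM in WT. That difference was smaller, at 0.33 ± 0.13 (adjusted p = 0.0475), and its highest value anywhere in these 2 groups was WT library 62. Without that library the changes were 2.17 ± 0.36 for Slc7a11, 1.03 ± 0.16 for Slc7a5 and 0.56 ± 0.09 for Slc3a2.

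Of the other transporters, Slc1a4, which carries alanine, serine and cysteine, had 45.0, 65.9, 60.2, 35.6 and 64.5 CPM in KO cells with TGFB1 and 44.4, 20.8, 12.5, 21.9 and 19.9 CPM in WT cells with TGFB1 (1.19 ± 0.21, adjusted p = 0.000286). Without library 62 this was 1.54 ± 0.17. Slc6a9, a glycine transporter, rose by 0.96, Slc16a10, a transporter of aromatic amino acids, by 0.70, and the glutamine transporter Slc1a5 and the arginine and lysine transporter Slc7a1 by 0.52 each. The neutral amino acid transporters Slc38a1 and Slc38a2 were not called, at 0.14 and 0.17. Exons of Slc6a9 overlap genes of the opposite strand, and the strand setting of the counting is not given, which also holds for Atf5, Cebpb, Psph, Shmt1, Shmt2 and Bcat1. Cebpg and Ddit3 overlap genes on both strands, and at Ddit3 the gene on the same strand is a second model of Ddit3.

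The regulators were mixed. Nupr1 rose most, with 4.26, 9.38, 6.96, 4.55 and 10.0 CPM in KO cells with TGFB1 and 4.26, 1.18, 2.03, 4.08 and 1.83 CPM in WT cells with TGFB1 (1.40 ± 0.28, adjusted p = 0.000779). Eif4ebp1, a repressor of translation that mTORC1 inactivates (0.85), Cebpb, a C/EBP partner (0.58), and Sesn2, which restrains mTORC1 when leucine is scarce (0.54), were also higher. Without library 62 Nupr1 was at 1.61 and Cebpb at 0.88. Trib3, a pseudokinase that feeds back on ATF4, had 60.9, 69.7, 50.7, 51.2 and 72.6 CPM in KO and 90.2, 30.8, 24.3, 36.2 and 38.1 CPM in WT, and Chac1 had 21.01, 22.9, 18.1, 12.3 and 21.9 CPM in KO and 25.6, 12.4, 7.33, 9.20 and 14.1 CPM in WT. Neither passed the test (0.48 ± 0.23, adjusted p = 0.099, and 0.49 ± 0.21, adjusted p = 0.0629). In both, WT library 62 was above every KO library, and without it both passed, at 0.92 and 0.84. Atf3 (0.49), Atf5 (-0.26) and Cebpg (0.23) were not called in the fit of all libraries. Atf3 was at 26.9 to 48.1 CPM in KO and 12.4 to 23.7 CPM in the 4 WT females with TGFB1. Cebpg was at 74.6 to 93.6 CPM in KO and 61.3 to 71.7 CPM in those WT females. WT library 62 exceeded every KO library in both genes, at 56.3 CPM for Atf3 and 96.4 CPM for Cebpg.

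Ddit4 and Ddit3 went the other way. Ddit4 (chromosome 10, 59949669 to 59951834) had 240, 166, 204, 258 and 182 CPM in KO cells with TGFB1 and 229, 276, 315, 326 and 283 CPM in WT cells with TGFB1, a log2 fold change of -0.45 ± 0.13 (adjusted p = 0.00965). Ddit3, which encodes the stress factor CHOP, had 7.18, 5.61, 7.17, 8.43 and 5.99 CPM in KO and 11.4, 9.20, 12.01, 9.11 and 10.6 CPM in WT (-0.61 ± 0.20, adjusted p = 0.0196). Without library 62 Ddit4 was at -0.51 and Ddit3 at -0.57. The KO and WT groups of Ddit3 did not overlap with TGFB1, and those of the other measured genes did. Overlap was not counted over all genes. Exons of Ddit3 overlap Mars on the opposite strand and a second Ddit3 model on the same strand, which held 0 counts. How reads shared by these genes were assigned is not given in the sources used here.

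**Figure D2:**
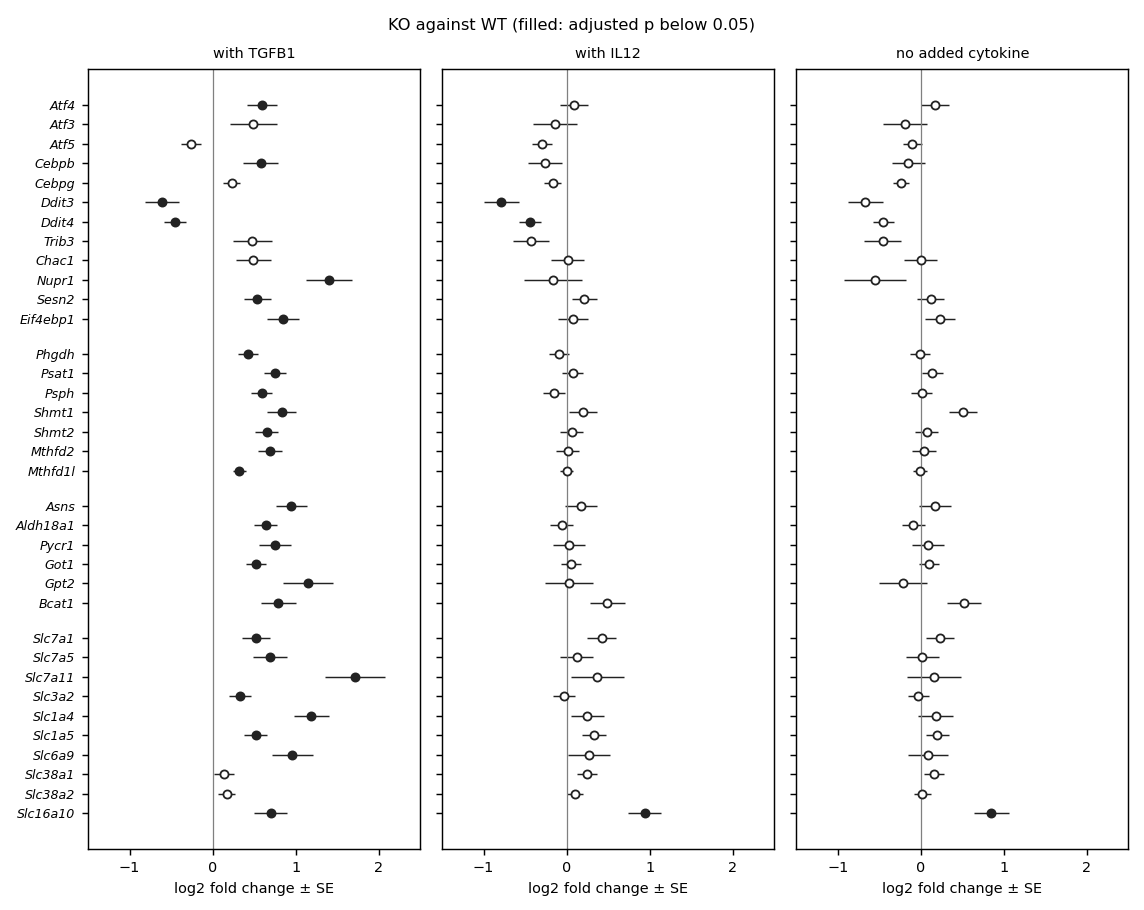
Log2 fold change of KO against WT for the 35 measured genes, with its SE, in the 3 culture conditions, with genes grouped as regulators, serine and one-carbon enzymes, other amino acid enzymes and transporters from top to bottom and filled points for adjusted p below 0.05. With TGFB1 26 points are filled to the right of 0 and 2 to the left, against 1 and 2 with IL12 and 1 and 0 without cytokine.

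Of the 28 calls between KO and WT with TGFB1, 24 held without any single library of the 10. The call of Slc3a2 ended without any 1 of 7 libraries (KO 63, 68 and 74 and WT 67, 71, 72 and 75), with adjusted p up to 0.178, and with no filter on low counts. Cebpb lost it without KO 68 or 74 or WT 67, 71 or 75 (up to 0.115), Slc7a1 without KO 68 or 74 or WT 71 (up to 0.0757), and Ddit3 without the same 3 (up to 0.06). When the KO and WT TGFB1 groups were fitted alone, the fold changes were alike but Atf4 (adjusted p = 0.0867), Phgdh (0.0527), Slc7a5 (0.0846), Gpt2 (0.0703), Sesn2 (0.0799), Slc7a1 (0.0734), Cebpb (0.13) and Slc3a2 (0.212) were not called.

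TGFB1 lowered most transcripts of the amino acid response in WT cells. Against WT cells without cytokine, 27 of the 35 genes fell and 3 rose, where 37.9% of all genes were called, 19.2% higher and 18.6% lower. The median of the 35 was -0.66 and that of all genes 0.016. In the fit of all libraries all 13 enzymes fell, with 7 of 10 transporters and 7 of 12 regulators. Without WT library 62, 28 fell and 2 rose, with 45.3% of genes called and a median of -0.88. This comparison and the one of KO with WT share the 5 WT TGFB1 libraries, so the size of each for a gene is not independent of the other.

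Atf4 averaged 234 ± 99.2 CPM in WT cells with TGFB1 and 438 ± 78.0 CPM in WT cells without cytokine (SD, n = 5 each), and the values without cytokine were 485, 506, 314, 412 and 475 CPM. The groups overlapped through library 62 with TGFB1 and library 71 without. The log2 fold change was -0.91 ± 0.18 (adjusted p = 0.000299). Asns averaged 165 ± 72.3 CPM with TGFB1, against 363, 330, 245, 307 and 320 CPM without cytokine, and fell by 0.92 on the log2 scale. Without library 62 Atf4 was at -1.2 ± 0.14 and Asns at -1.21 ± 0.16.

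The largest falls were in Slc7a11 and Gpt2. Slc7a11 averaged 2.49 ± 1.79 CPM with TGFB1, against 8.56, 8.94, 3.65, 5.98 and 8.29 CPM without cytokine, a log2 fold change of -1.52 ± 0.37 (adjusted p = 0.00189). Gpt2 averaged 39.5 ± 32.6 CPM with TGFB1, against 108, 119, 77.3, 124 and 113 CPM without (-1.46 ± 0.30, adjusted p = 0.00046). Without TGFB1 library 62 they were at -1.99 and -2.11. The lowest library without cytokine in both was 71. Trib3 changed next most, at -1.37 ± 0.23, and at -1.81 without library 62. Its highest library with TGFB1, library 62, held 90.2 CPM, below all 5 without cytokine, at 92.3 to 125 CPM. The WT groups of Mthfd1l did not overlap either (267 ± 38.6 CPM with TGFB1 and 386 ± 26.1 CPM without, SD, n = 5 each).

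The serine enzymes Phgdh (-0.51), Psat1 (-0.66), Psph (-0.78), Shmt1 (-0.97), Shmt2 (-0.77) and Mthfd2 (-0.68) fell in WT cells with TGFB1. Slc7a5 fell by 1.00 and Slc3a2 by 0.53, and Chac1 by 0.82. Without library 62 the 7 serine enzymes were at -1.14 to -0.62, Slc7a5 at -1.34, Slc3a2 at -0.76 and Chac1 at -1.17. The 3 genes that rose were Nupr1, with 4.26, 1.18, 2.03, 4.08 and 1.83 CPM with TGFB1 and 2.002, 1.44, 1.18, 1.79 and 0.795 CPM without (0.89 ± 0.33, adjusted p = 0.0327), Slc16a10, with 26.1, 36.2, 36.7, 40.1 and 42.1 CPM with TGFB1 and 30.6, 28.99, 15.8, 19.1 and 28.6 CPM without (0.56 ± 0.21, adjusted p = 0.0341), and Ddit4 (286 ± 37.9 CPM with TGFB1 and 214 ± 30.5 CPM without, SD, n = 5 each; 0.42 ± 0.13). All 3 overlapped between groups. Without library 62 Slc16a10 was at 0.65, Ddit4 at 0.49 and Nupr1 at 0.67, the last no longer called (adjusted p = 0.102). Atf5 (0.28), Ddit3 (0.23), Sesn2 (-0.17), Slc38a1 (-0.16) and Slc38a2 (-0.11) were not called.

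Of the 30 calls in WT cells, 25 held without any single library. Atf3 lost its call without TGFB1 libraries 67, 71 or 75 or libraries 72 or 75 without cytokine (adjusted p up to 0.0851), and Bcat1 without TGFB1 67, 71, 72 or 75 or 62, 67 or 75 without cytokine (up to 0.12). Nupr1 lost it without TGFB1 62 or 72 or 67, 71 or 75 without cytokine (up to 0.113), and Slc16a10 without TGFB1 67, 71, 72 or 75 or 71 or 72 without cytokine (up to 0.0932). Slc1a4 (-0.53) lost it without any of those 4 TGFB1 libraries or 62, 67, 72 or 75 without cytokine (up to 0.156).

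In KO cells TGFB1 changed few of these genes. Nupr1 and Ddit4 rose and Atf4 and Shmt1 fell, 4 of 35 genes, where 24.5% of all genes were called, 13.5% higher and 11% lower. The median log2 fold change was -0.10. Nupr1 had 4.26, 9.38, 6.96, 4.55 and 10.0 CPM with TGFB1 and 1.16, 0.731, 0.528, 1.30 and 1.10 CPM without, so all libraries with TGFB1 were above all without (2.84 ± 0.32, adjusted p = 1.37e-07). Ddit4 had 240, 166, 204, 258 and 182 CPM with TGFB1 and 172, 123, 148, 189 and 153 CPM without (0.42 ± 0.13, adjusted p = 0.0191).

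Atf4 fell in KO cells too, to 353 ± 79.7 CPM with TGFB1, against 499, 528, 493, 442 and 498 CPM without cytokine, and its groups did not overlap (-0.48 ± 0.18, adjusted p = 0.0456). Shmt1 had 80.6, 133, 91.5, 64.2 and 129 CPM with TGFB1 and 145, 181, 164, 131 and 166 CPM without (-0.66 ± 0.17, adjusted p = 0.00534). The other enzymes moved by -0.30 to -0.04 on the log2 scale, none of them called, and Asns was at -0.15 ± 0.19, Psat1 at -0.05 ± 0.13 and Slc7a11 at 0.03 ± 0.32. Among these enzymes, the groups of Mthfd1l did not overlap either (299 to 366 CPM with TGFB1 and 378 to 400 CPM without). The call of Atf4 ended without TGFB1 libraries 63, 70 or 73 or libraries 63, 68, 70 or 74 without cytokine (adjusted p up to 0.151). That of Ddit4 ended without TGFB1 63 or 73 or 68 without cytokine (up to 0.0718). Without TGFB1 library 63, or without library 68 of the cultures with no cytokine, 2 genes in all were called. In those fits 20.7% and 19.4% of all genes were called.

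**Figure D3:**
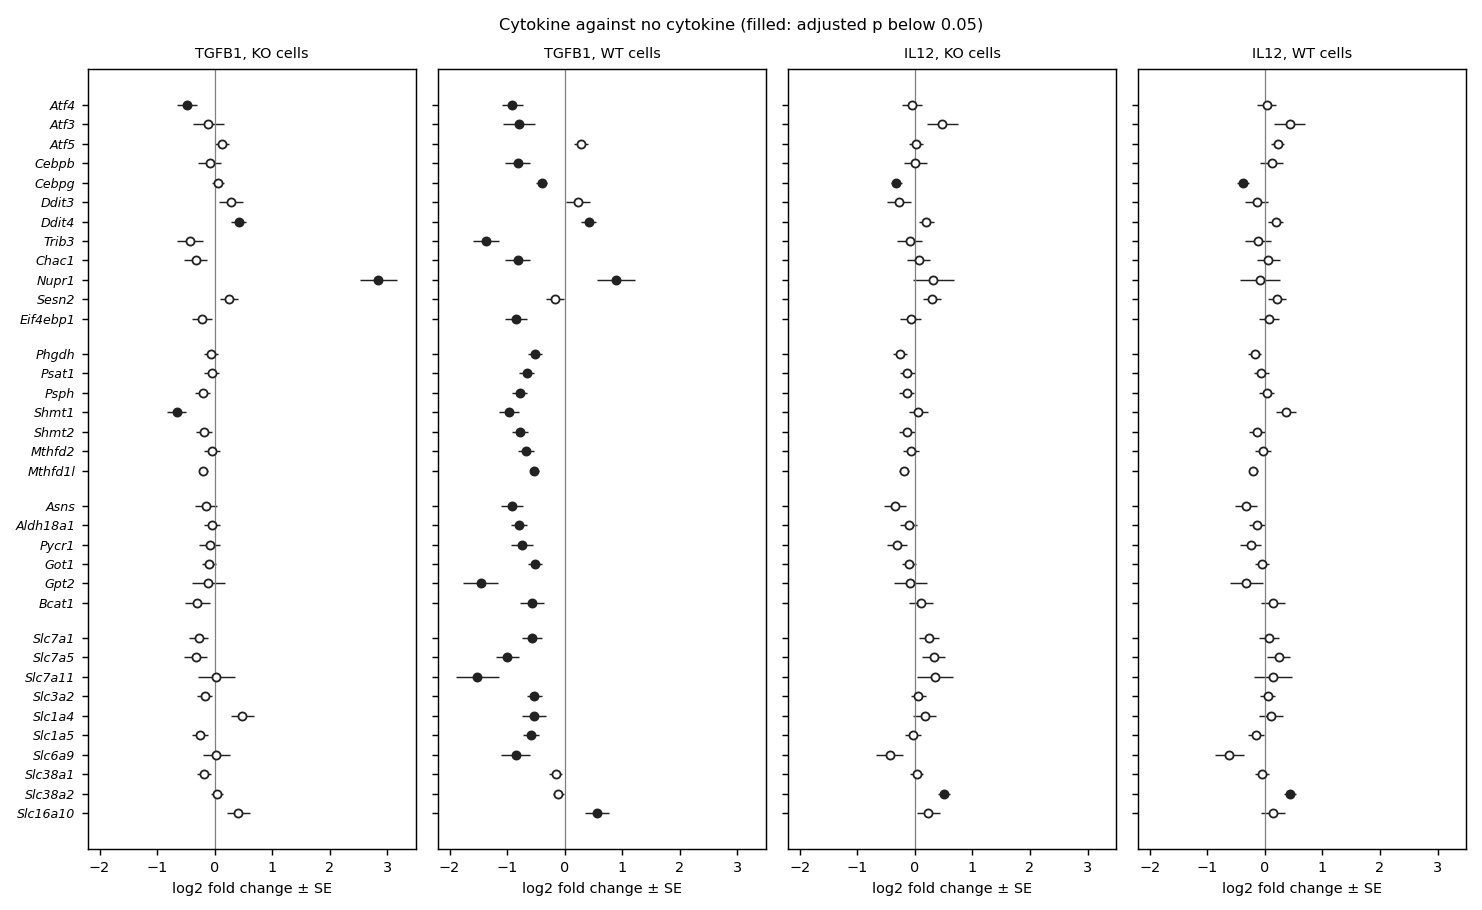
Log2 fold change of each cytokine against no cytokine for the 35 measured genes, with its SE, in KO and in WT cells, filled where the adjusted p was below 0.05. In WT cells with TGFB1 27 filled points lie left of 0, against 2 in KO cells, and with IL12 1 gene rose and 1 fell in each genotype.

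The difference between these responses was tested directly, as the TGFB1 response in KO minus that in WT. It was higher in KO for 3 of the 35 genes and lower for 0, where 3.30% of all genes were called, 1.61% higher and 1.69% lower. They were Nupr1 (1.95 ± 0.47, adjusted p = 0.0262), Aldh18a1 (0.74 ± 0.19, adjusted p = 0.0367) and Slc1a4 (1.01 ± 0.29, adjusted p = 0.0496). Aldh18a1, which starts proline synthesis, had 306, 376, 313, 244 and 391 CPM in KO cells with TGFB1 and 330, 175, 153, 207 and 179 CPM in WT cells with TGFB1. Without cytokine its means were 337 ± 8.82 CPM in KO cells and 360 ± 40.2 CPM in WT (SD, n = 5 each). The difference was positive in 32 of 35 genes, with a median of 0.50, against 0.005 over all genes. Before adjustment 20 of the 35 were below 0.05, and 22.9% of all genes. For Atf4 itself it was 0.43 ± 0.25 (adjusted p = 0.301).

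That count rested on single libraries. Without WT TGFB1 library 62 it was 25 higher and 0 lower, where 18.2% of 11856 genes were called, and the median was 0.75. Asns was then at 1.06 ± 0.21, Gpt2 at 2.0 ± 0.29, Nupr1 at 2.17 ± 0.46, Slc1a4 at 1.36 ± 0.23, Aldh18a1 at 0.96 ± 0.14 and Atf4 at 0.73 ± 0.18. In females only, 4 libraries a group, it was 23 and 0, with 10.6% of genes called. Without KO TGFB1 library 73 it was 12, with 7.48% of genes called, and without WT library 71 of the cultures with no cytokine 6, with 3.66% called. It was 0 without KO TGFB1 68 or 74, WT TGFB1 67, 71 or 75, KO 68 or 70 without cytokine, or WT 62 or 72 without cytokine, and 1 without KO 63 or 74 or WT 67 or 75 without cytokine. In those fits 0.491% to 2.08% of all genes were called, so the share over all genes moved with the count. Library 62 is also the only WT male with TGFB1, so sex and library cannot be told apart there.

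**Figure D4:**
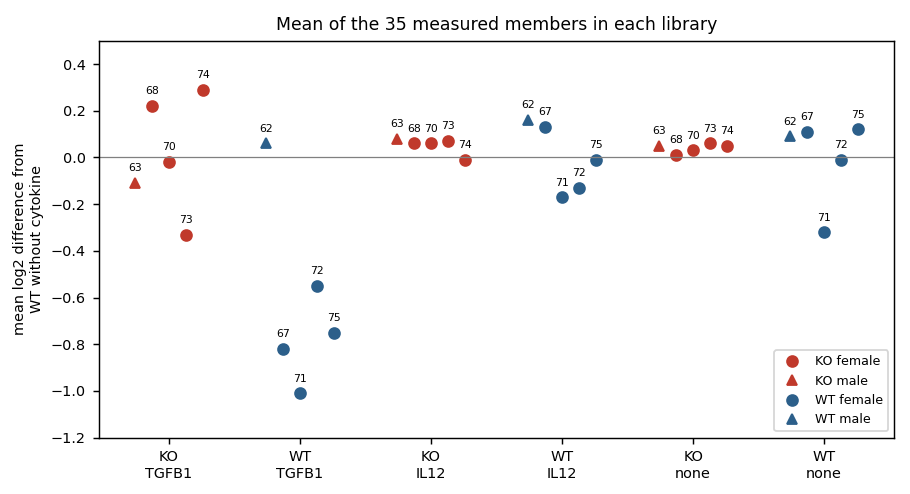
Mean over the 35 measured genes of the log2 difference of each library from the mean of WT cells without cytokine, with library numbers, KO in red, WT in blue and males as triangles. WT TGFB1 library 62 is at 0.06, the other 4 at -0.55 to -1.01, and the KO TGFB1 libraries spread from -0.33 to 0.29.

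The libraries also differed within groups. The mean log2 difference of the 35 genes from WT cells without cytokine was -0.11, 0.22, -0.02, -0.33 and 0.29 in KO cells with TGFB1 and 0.06, -0.82, -1.01, -0.55 and -0.75 in WT cells with TGFB1. In the KO group library 73 was lowest in 27 of the 35 genes. Itgae was at 41.5, 28.4, 84.8, 65.6 and 35.9 CPM in those KO libraries and 28.9, 244, 268, 152 and 254 CPM in those WT libraries. Smad7, another gene that TGFB1 induces, was at 14.8, 9.92, 17.4, 20.5 and 10.2 CPM in KO and 12.9, 30.0, 35, 19.4 and 33.9 CPM in WT. In WT cells without cytokine, library 71 was lowest in 28 of the 35 genes, with a mean of -0.32, and its Itgae was at 7.30 CPM, against 2.45 to 2.75 CPM in the other 4. The part of these transcripts' levels in the results was not tested. In cultures, fewer responding cells and less RNA of a gene per cell cannot be told apart.

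With IL12, KO and WT cells differed in 3 of the 35 genes, where 6.78% of all genes were called, 2.76% higher and 4.01% lower. Slc16a10 (chromosome 10, 40033532 to 40142258) was higher, with 46.9, 57.3, 57.8, 43.6 and 54.9 CPM in KO and 36.9, 33.7, 24.4, 17.7 and 23.4 CPM in WT, and the groups did not overlap (0.94 ± 0.20, adjusted p = 0.00786). Ddit3 had 5.78, 3.12, 3.45, 6.92 and 4.37 CPM in KO and 7.11, 7.46, 6.74, 9.26 and 9.95 CPM in WT (-0.79 ± 0.21, adjusted p = 0.0221). Ddit4 had 180, 161, 176, 201 and 182 CPM in KO and 186, 214, 253, 273 and 293 CPM in WT (-0.44 ± 0.13, adjusted p = 0.0402). In both, the groups overlapped at their edges. Ddit3 lost its call without KO 68 or 70 or WT 72 or 75 (adjusted p up to 0.0869), and Ddit4 without KO 63, 68, 70 or 74 or WT 71, 72 or 75 (up to 0.158). The count was 1 without KO 68 or 70 or WT 72 or 75, where 1.47% to 2.84% of all genes were called. It was 6 without WT 62, where 12.9% of all genes were called. Atf4 was at 0.09 ± 0.17 and the median of the 35 at 0.05.

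Without cytokine, Slc16a10 was the 1 gene of the 35 that was called, where 2.10% of all genes were called, 1.08% higher and 1.02% lower. It had 41.3, 44.9, 52.1, 29.7 and 54.1 CPM in KO and 30.6, 28.99, 15.8, 19.1 and 28.6 CPM in WT (0.85 ± 0.21, adjusted p = 0.0299), with KO library 73 and WT library 62 overlapping. The call ended without KO 68, 70 or 74 or WT 71 or 72 (adjusted p up to 0.12), leaving 0. In those fits 0.0591% to 0.236% of all genes were called. Without KO 73 or WT 62, 3 genes were called, with 4.75% and 3.02% of all genes. Ddit3 (-0.67, adjusted p = 0.0803) and Ddit4 (-0.45, adjusted p = 0.0671) had sizes close to those of the cytokine cultures but were not called. Atf4 was at 0.17 ± 0.17 and Asns at 0.17 ± 0.19. The median of the 35 was 0.04. Slc16a10 was thus called higher in KO in all 3 conditions, and Ddit3 and Ddit4 lower in the 2 with a cytokine.

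IL12 itself changed 2 of the 35 genes in each genotype, where 14.2% of all genes were called in KO (8.49% higher and 5.74% lower) and 18.9% in WT (10.5% higher and 8.30% lower). Slc38a2, a sodium-coupled importer of small neutral amino acids, rose in both. It had 277, 260, 280, 350 and 256 CPM with IL12 and 201, 188, 211, 203 and 194 CPM without in KO cells (0.51 ± 0.10, adjusted p = 0.00066), where the groups did not overlap. In WT cells it had 301, 271, 319, 228 and 205 CPM with IL12 and 198, 187, 191, 190 and 214 CPM without (0.44 ± 0.10, adjusted p = 0.00256). Cebpg, the C/EBP partner of ATF4, fell in both. It had 64.9, 63.04, 65.0, 76.5 and 56.3 CPM with IL12 and 81.6, 73.4, 84.6, 90.2 and 76.4 CPM without in KO cells (-0.32 ± 0.10, adjusted p = 0.0252), and 76.7, 71.9, 68.9, 70.95 and 78.3 CPM with IL12 and 87.0, 97.9, 93.8, 102 and 97.4 CPM without in WT cells (-0.38 ± 0.10, adjusted p = 0.00618). The WT groups of Cebpg did not overlap.

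Slc7a5 had means of 785 ± 52.7 CPM in KO cells and 723 ± 120 CPM in WT cells with IL12, and 622 ± 31.9 CPM in KO cells and 612 ± 103 CPM in WT cells without cytokine (SD, n = 5 each), and was not called in either genotype. In KO cells its groups did not overlap (703 to 842 CPM with IL12 and 587 to 671 CPM without). This also held for other genes of the 35 that were not called. Overlap was not counted over all genes. When the compared groups were fitted alone, 11 genes were called in KO, with 21.2% of all genes. The KO call of Cebpg ended without KO IL12 68 or 74 or KO 70 or 73 without cytokine (adjusted p up to 0.0985), which left 1 gene. Those fits called 8.83% to 13.6% of all genes. Without WT IL12 62 or 67, 4 genes were called in WT. The difference between the 2 IL12 responses was called for 0 of 35 genes and 0 of 11718 by edgeR and 0 by DESeq2. At an unadjusted p below 0.05 there were 0 of the 35 and 513 of all genes.

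Other genes of the pathway were read from further lists. The cytosolic aminoacyl-tRNA synthetases, which load amino acids onto tRNA and include known ATF4 targets, followed the same direction. With TGFB1, 17 of 20 were higher in KO than in WT and 0 lower, with a median of 0.32, where 18.3% of all genes were higher and 17.3% lower. Without library 62 it was 17 and 1, with a median of 0.46. Iars, for isoleucine, had a mean of 347 CPM in KO cells and 214 CPM in WT cells (0.70 ± 0.15, adjusted p = 0.00125), and Cars, for cysteine, 162 CPM in KO cells and 104 CPM in WT cells (0.64 ± 0.15, adjusted p = 0.00219). TGFB1 against no cytokine lowered 5 of the 20 in KO and 19 in WT and raised 0 in either, where TGFB1 lowered 11% of all genes in KO and 18.6% in WT. Without library 62 it lowered 19 and raised 1 in WT.

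Of 20 measured folate and one-carbon genes outside the 36, 13 were higher and 0 lower in KO with TGFB1, and 14 and 0 without library 62, against the same 18.3% and 17.3% over all genes. Aldh1l2, a mitochondrial folate dehydrogenase, had a mean of 16.1 CPM in KO cells and 4.85 CPM in WT cells (1.72 ± 0.26, adjusted p = 9.46e-05), and the folate transporter Slc19a1 had a mean of 123 CPM in KO cells and 56.3 CPM in WT cells (1.14 ± 0.20, adjusted p = 0.000348). TGFB1 against no cytokine raised 1 and lowered 2 in KO, and raised 0 and lowered 10 in WT (1 and 13 without library 62), where 24.5% of all genes were called in KO and 37.9% in WT. Of 18 other amino acid enzymes, 7 were higher and 2 lower in KO with TGFB1, among them Cth, which makes cysteine by transsulfuration (a mean of 92.3 CPM in KO cells and 38.2 CPM in WT cells, 1.28 ± 0.28). TGFB1 against no cytokine raised 2 of them and lowered 0 in KO, and raised 2 and lowered 5 in WT. Of these enzymes 50% were called between KO and WT and 38.9% for TGFB1 in WT, against 35.6% and 37.9% of all genes. Without library 62 the counts were 10 higher and 3 lower between KO and WT, and 2 and 8 in WT.

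Of 18 other transporters, 5 were higher and 1 lower in KO with TGFB1, with the cationic amino acid transporter Slc7a3 at 71.1 CPM in KO cells and 32.3 CPM in WT cells (1.14 ± 0.22, adjusted p = 0.000504). TGFB1 against no cytokine raised 2 and lowered 1 in KO, and raised 4 and lowered 3 in WT. In KO that was 16.7% of them, against 24.5% of all genes. These transporters were called about as often as all genes, 33.3% against 35.6% between KO and WT and 38.9% against 37.9% for TGFB1 in WT, and without library 62 the counts were 4 and 1 between KO and WT and 4 and 4 in WT. Of 15 further ATF4 targets, many of them also driven by other stress factors, 4 were higher and 3 lower in KO with TGFB1. Their changes with TGFB1 were 2 higher and 1 lower in KO, and 3 higher and 5 lower in WT. Called were 46.7% of them between KO and WT, 53.3% for TGFB1 in WT and 20.0% for TGFB1 in KO. Over all genes these shares were 35.6%, 37.9% and 24.5%. Without library 62 the counts were 5 higher and 4 lower, and 3 and 6 in WT. Of 14 genes of the eIF2 system upstream of ATF4, 6 were higher and 1 lower in KO with TGFB1. Eif2ak4, which encodes the amino acid sensor GCN2, had a mean of 29.3 CPM in KO cells and 18.3 CPM in WT cells (0.68 ± 0.13, adjusted p = 0.000611), and the lower gene was Eif2ak3, which encodes the endoplasmic reticulum stress sensor PERK, with 32.4 CPM in KO cells and 60.1 CPM in WT cells (-0.89 ± 0.22, adjusted p = 0.00311). TGFB1 against no cytokine raised 1 and lowered 1 of the 14 in KO, and raised 1 and lowered 6 in WT, and the gene it raised in WT was Eif2ak3 (1.00 ± 0.22, adjusted p = 0.00102). Between KO and WT 50% of the 14 were called, in both directions, against 35.6% of all genes. For TGFB1 it was 50% in WT, against 37.9% of all genes, and 14.3% in KO, against 24.5%. Without library 62 the counts were 7 higher and 2 lower between KO and WT, where 45.4% of all genes were called. In WT they were then 1 raised and 7 lowered, with 45.3% of all genes called.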

How the data were processed

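RNA of 30 cultures of CD8+ T cells was sequenced after poly(A) selection with a directional kit, per the labels' protocols. The deposited file held raw read counts per Ensembl gene, whole numbers, which the authors had not normalized. FastQC, Trim Galore, STAR, DESeq2 1.24.0 and the GRCm38 build are named in the submitters' processing notes. No source used here gives the counting tool, its strand setting or the annotation, so reads of overlapping genes cannot be assigned by strand.

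Symbols, positions and exonic lengths came from GENCODE vM21 on GRCm38, and promoter windows from RefSeq on GRCm38.p6. Where a symbol had 2 Ensembl identifiers the longer gene model was used. Groups followed the labels' genotype and treatment. The count table was fitted with edgeR 4.0.16 (R 4.3.3): genes were kept by filterByExpr (minimum count 10), scaled by TMM and fitted in 1 quasi-likelihood model with a mean per group over all 30 libraries. Calls are two-sided at a Benjamini-Hochberg adjusted p below 0.05 over 11718 genes, and SEs were derived from the F statistic. CPM values use TMM library sizes, and levels are compared between genes only per kilobase of exon. The biological coefficient of variation was 14.3%. Library totals were 7306151 to 15502443.

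The 36 genes and the other lists were chosen with earlier results of these data known, so counts over them describe and do not test. Library values are given for Atf4, Asns, Psat1, Phgdh, Mthfd2, Shmt2, Slc7a5, Slc3a2, Slc7a11, Trib3, Chac1 and Ddit4 and for up to 2 called genes with the largest rise and fall in each comparison. Values of Gpt2 and Aldh18a1, and those of Slc1a4 in the comparison of KO with WT, were added after their size was seen, and the genes named from the other lists were chosen after their values were seen. Alternatives were DESeq2 1.42.0, limma-voom (limma 3.58.1), median-of-ratios scaling, other filters, a sex term, females only, the compared groups alone, removal of a length trend, replicate blocks and leaving out each library. Scripts were tested on simulated data.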

Additional observations from a re-analysis of the deposited data

Results flagged for a closer look

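For each of the 35 genes in each of the 6 groups of 5 libraries, the gap of the highest or lowest library to its neighbour was set against the range of the group. In 16 of 210 such groups (7.6%) a library stood apart by Dixon's 95% criterion, which chance passes in about 1 in 20. In 9 of the 16 it was WT TGFB1 library 62, above the other 4 in its group: Atf4 409.3 CPM, Atf3 56.34, Trib3 90.16, Eif4ebp1 125.2, Phgdh 599.2, Gpt2 96.88, Slc7a5 558.8, Slc3a2 396.3 and Slc1a5 456.6. The same library was far below the other 4 in Itgae, as given above, and the cause was not tested.

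The other 7 were spread over 6 libraries. Atf4 was low in KO IL12 library 73 (411.5 CPM), whose Slc38a2 was high (349.6), and Slc38a1 was low in KO IL12 library 74 (341.2). Slc7a11 was low in WT IL12 library 72 (4.737) and Got1 low in WT IL12 library 71 (145.5). Ddit3 was high in KO library 73 without cytokine (7.773), and Aldh18a1 low in WT library 71 without cytokine (288.9).

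The TGFB1 response differed between KO and WT by the test of the difference in Nupr1 (1.95, adjusted p = 0.0262), Aldh18a1 (0.74, adjusted p = 0.0367) and Slc1a4 (1.01, adjusted p = 0.0496; edgeR quasi-likelihood test). Each lost the call when certain single libraries were left out: Nupr1 without any 1 of 9 of the 20 libraries concerned, Aldh18a1 13 and Slc1a4 17.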

How the results depend on the processing

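No gene that was called changed direction under any alternative. The cause of the changed counts below was not tested. Of the 28 genes called between KO and WT with TGFB1, 19 kept the call under every alternative, and of the 30 called for TGFB1 in WT, 25 did. Leaving out each library in turn gave 24 to 32 called genes (23.6% to 45.4% of all genes) and 26 to 30 (29.8% to 45.3%). Other counts were small and moved more. For KO against WT without cytokine (1 gene), DESeq2 gave 3 (4% of all genes) and a fit of the compared groups alone 5 (10.1%). Females only gave 2 (2.88%), no filter 2 (1.06%), and leaving out each library 0 to 3 (0.0591% to 4.75%). With IL12 (3 genes), the compared groups alone gave 1 (0.404%), females only 5 (9.77%), and leave-one-out fits 1 to 6 (1.47% to 12.9%). For TGFB1 in KO (4 genes), the compared groups alone gave 8 (30.2%) and leave-one-out fits 2 to 5 (19.4% to 24.5%). For IL12 in KO (2 genes), the compared groups alone gave 11 (21.2%), leave-one-out fits 1 to 2 (8.83% to 13.6%) and no filter 1 (5.6%). For IL12 in WT (2 genes), females only gave 4 (20.8%) and leave-one-out fits 2 to 4 (11.2% to 23%). For the difference between the TGFB1 responses (3 genes), DESeq2 gave 13 (7.03%), limma-voom 6 (3.58%) and a sex term 8 (3.92%). Females only gave 23 (10.6%), the compared groups alone 1 (2.88%), and leave-one-out fits 0 to 25 (0.491% to 18.2%).

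The labels do not say that equal numbers mark 1 animal. Libraries of the same number deviated together in 25 of 30 pairs (correlation over 0.1, median 0.222, range -0.034 to 0.43), and 26 of 30 libraries correlated best with their own number. With the number as a random replicate block, counts were 2 for KO against WT without cytokine (2.36% of all genes called) and 4 for IL12 in WT (22.8%). For the difference between the TGFB1 responses it was 14, with 8.15% of all genes called. With a fixed block counts were 8 for TGFB1 in KO (29.1%), 5 for IL12 in WT (23.9%) and 17 for that difference (9.16%). Depth limits Nupr1, Slc7a11 and Ddit3, the least read genes, and Vldlr could not be tested.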
